A study of Mus musculus with 18 samples.

Results

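The genes described here are the integrin chains, laminin chains and hemidesmosome genes of the embryonic mouse palate. They were every gene whose array probe sets carried a single symbol of the form Itga, Itgb, Lama, Lamb or Lamc followed by a number and at most 1 letter, together with Col17a1, Dst, Plec, Nid1 and Nid2. This gave 35 genes of the 18193 measured, from 77 probe sets, and the probe set with the highest mean over all 18 arrays stood for each gene. The rule used no difference between groups. Itga11 had no probe set with a single symbol and was not analysed here.

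RNA was taken from palatal tissue of C57BL/6J mouse embryos at embryonic day 15.5 and hybridised to 18 Affymetrix arrays of 1 colour. The 6 mutant posterior palate samples had the genotype K14-Cre;Tgfbr2 fl/fl, in which a Cre recombinase driven by the keratin 14 promoter deletes the type II TGF-beta receptor gene in epithelial cells. The 6 control posterior and the 6 control anterior palate samples were Tgfbr2 fl/fl, so all 3 groups carried the floxed allele and only the mutants carried Cre. Mutants and controls came from separate litters, sex was not determined, and the labels do not say whether a sample was 1 embryo or a pool, so p-values cover only sample-to-sample spread, which may be technical, and litter and genotype cannot be told apart. The deletion is limited to epithelium while the tissue was whole palate, so RNA of mesenchyme, muscle, vessels and nerve could contribute to every array. The stated aim concerned what loss of TGF-beta signalling in the epithelium does to the neighbouring muscle.

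Integrins are receptors of an alpha and a beta chain that bind matrix outside the cell and the cytoskeleton inside it. Laminins are trimers of an alpha, a beta and a gamma chain, which nidogens tie to collagen IV to form basement membranes. In basal epithelial cells, integrin alpha-6 and beta-4 chains, collagen XVII, plectin and the epithelial form of dystonin build the hemidesmosome, which fastens keratin filaments to a laminin that holds the Lama3 and Lamb3 chains. TGF-beta signalling is a known regulator of matrix and integrin genes in many cell types.

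The promoters of 4 genes are shown because they stand for the main patterns below: Lama2 and Itga4 were higher in mutant posterior palate, and Col17a1 and Lamb3 were lower in control posterior than in control anterior palate. Each sequence is the 250 bases before a transcript start in RefSeq (build GRCm38.p6), read 5′ to 3′ on the gene's strand. Capitals mark CAGAC, a core that SMAD proteins bind, or its reverse complement GTCTG, and the E-box CAGCTG, a core that myogenic factors bind, which reads the same on both strands.
Lama2, chr10:27616943-27617192, minus strand: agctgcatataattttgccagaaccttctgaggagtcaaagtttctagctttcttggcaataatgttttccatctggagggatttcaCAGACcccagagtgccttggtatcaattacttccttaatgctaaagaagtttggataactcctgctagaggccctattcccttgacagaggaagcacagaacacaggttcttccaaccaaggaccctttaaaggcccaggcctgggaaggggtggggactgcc
Itga4, chr2:79255176-79255425, plus strand: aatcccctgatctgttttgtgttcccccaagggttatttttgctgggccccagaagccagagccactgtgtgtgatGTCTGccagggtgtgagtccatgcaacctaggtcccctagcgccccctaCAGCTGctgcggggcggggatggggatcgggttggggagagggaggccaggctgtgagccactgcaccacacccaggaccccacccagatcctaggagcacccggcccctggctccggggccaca
Col17a1, chr19:47692043-47692292, minus strand: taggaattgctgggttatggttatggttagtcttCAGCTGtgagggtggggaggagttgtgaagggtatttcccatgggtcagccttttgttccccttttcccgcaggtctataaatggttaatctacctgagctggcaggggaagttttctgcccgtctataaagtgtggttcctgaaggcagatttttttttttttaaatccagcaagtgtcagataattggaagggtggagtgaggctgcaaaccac
Lamb3, chr1:193301744-193301993, plus strand, the first of its listed starts: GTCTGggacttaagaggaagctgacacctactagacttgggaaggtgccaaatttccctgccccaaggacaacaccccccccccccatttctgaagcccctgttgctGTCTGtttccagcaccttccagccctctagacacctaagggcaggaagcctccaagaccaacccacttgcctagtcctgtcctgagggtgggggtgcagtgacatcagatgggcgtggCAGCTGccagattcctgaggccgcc
The table held promoters for 23 of the 35 genes, in 27 windows. CAGAC was found on either strand in 16 of the 27 windows (59.3%), against 42.2% of all 32851 windows of the same length. CAGCTG was found in 8 of the 27 (29.6%), against 13.0% of all windows. The AP-1 core TGANTCA was found in 0 of the 27 and in 6.75% of all windows. No searched motif overlapped another in the 4 windows shown. A match describes the letters and does not show binding.

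Values are log2 levels, so a difference of 1 is a 2-fold change, and levels of different genes are not compared because probe sets differ in brightness. Of the 35 genes, 21 had a mean over all arrays above that of the median gene (7.38). A gene was called at a limma adjusted p under 0.05 over all 18193 genes. Marker genes were read to check the tissue labels. The mean of 8 basal epithelium markers lay between 9.66 and 12.20 in mutant posterior, 11.53 and 12.04 in control posterior and 11.70 and 12.53 in control anterior palate. The mean of 10 skeletal muscle markers lay between 9.59 and 12.38 in mutant posterior, 9.54 and 10.79 in control posterior and 5.63 and 8.02 in control anterior palate. Mutant array 1 had the lowest epithelial mean (9.66; the other mutants read 11.25 to 12.20) and the highest muscle mean (12.38). Labelling spike-in controls read 6.39 to 7.73 in mutant posterior, 8.12 to 9.43 in control posterior and 8.11 to 9.66 in control anterior palate, so whatever set these readings cannot be told apart from the genotype. Hybridisation spike-ins parted arrays 1 to 3 from arrays 4 to 6 in every group, and these are called sets of arrays. Mutant arrays 1 to 3 read 11.71 to 12.21 and mutant arrays 4 to 6 read 11.06 to 11.18. The order was reversed in controls of both regions. There arrays 1 to 3 read 10.93 to 11.02 and arrays 4 to 6 read 11.26 to 11.51. The array median was 5.867 to 5.904 in mutant arrays 1 to 3 and 5.739 to 5.797 on all other arrays. Its part in the genotype differences was not tested beyond the median centring and quantile normalization given at the end. Tgfbr2 itself had a lowest, median and highest level of 10.63, 11.05 and 11.39 in mutants, against 10.25, 10.45 and 10.73 in control posterior palate. It was higher in mutants by 0.55 (SE 0.13, limma adjusted p = 0.00879), the groups overlapped, and the place of its probe set against the floxed exons was not known, so it does not check the labels.

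In mutant posterior palate, 10 of the 35 genes (28.6%) were called against control posterior palate, and all 10 were higher: Itga9, Itga4, Lama2, Itga10, Nid2, Itga7, Lama4, Nid1, Plec and Lamc1. Itga9, Itga4, Itga10 and Itga7 were dimmer on average than the median gene, so a filter on dim genes leaves them untested. Over all genes, 13.5% were called, 7.73% higher and 5.73% lower. None of the 35 was called lower, 14 had an unadjusted p under 0.05, and the median difference was 0.17 over the 35 genes and 0.04 over all genes. For 7 of the 35 (20%) every mutant array lay above every control posterior array, against 3.52% of all genes. The hemidesmosome genes other than Plec, and Lama3 and Lamb3, were not called. In bulk tissue, fewer cells of a type and less RNA per cell cannot be told apart.

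**Figure D1:**
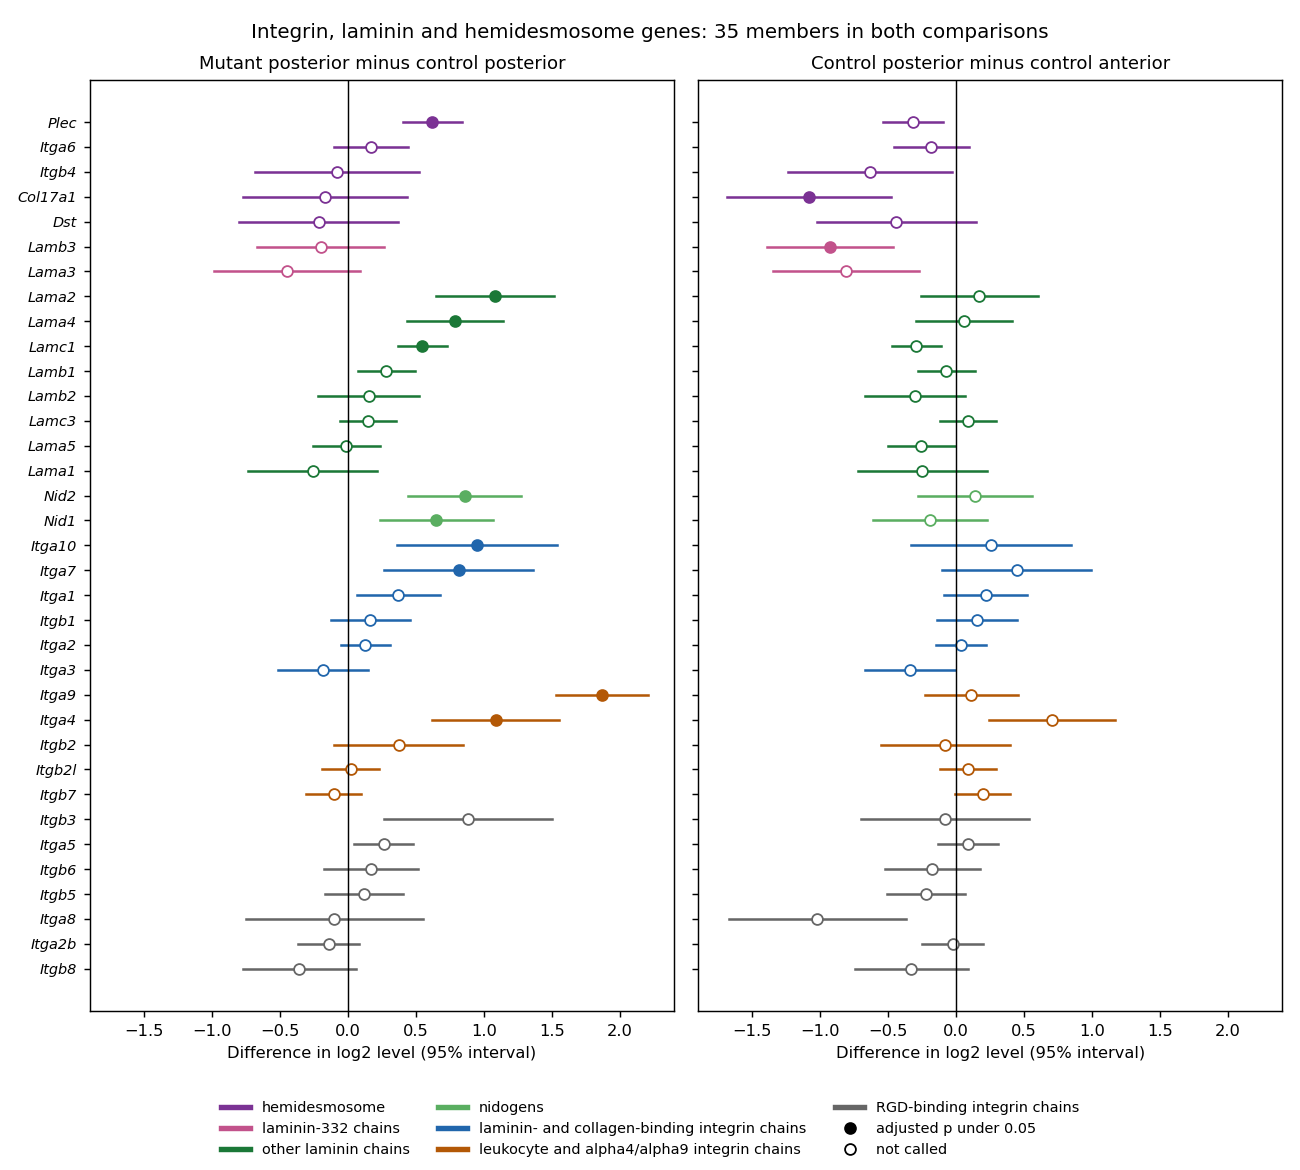
Difference in log2 level for each of the 35 genes, with its 95% interval, for mutant posterior minus control posterior palate (left) and control posterior minus control anterior palate (right); colours give the gene's role and filled points are called at an adjusted p under 0.05. On the left the 10 filled points all lie above 0, and on the right the 2 filled points, Col17a1 and Lamb3, lie below 0.

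Within the hemidesmosome, only Plec was called. Plec, which encodes plectin, the linker of intermediate filaments to integrin beta-4, had a lowest, median and highest level of 9.75, 10.06 and 10.41 in mutant posterior palate, against 9.20, 9.45 and 9.63 in control posterior palate. All 6 mutants were above all 6 controls, by 0.62 (SE 0.10, limma adjusted p = 0.00105), a 1.54-fold difference. Plectin is also made in muscle and fibroblasts, and its highest mutant value was on array 1.

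Col17a1, the transmembrane collagen of the hemidesmosome and a marker of basal keratinocytes, read 8.05, 9.73 and 10.38 (lowest, median and highest) in mutants, against 8.90, 9.77 and 9.93 in control posterior palate. The groups overlapped, and the difference of -0.17 (SE 0.29, 95% interval -0.77 to 0.44, adjusted p = 0.748) leaves a change of either sign possible. Itgb4, the beta chain found in hemidesmosomes, read 6.38, 8.02 and 8.71 in mutants, against 7.62, 8.04 and 8.25 in controls. Its medians lay close together and its difference was -0.08 (SE 0.29, adjusted p = 0.887). Dst, which encodes dystonin, read 7.31, 9.12 and 9.74 in mutants, against 8.71, 9.19 and 9.34 in controls, with a difference of -0.21 (SE 0.28, adjusted p = 0.659). Itga6, the alpha chain that pairs with beta-4, read 9.86, 10.72 and 10.96 in mutants, against 10.31, 10.46 and 10.52 in controls. Its difference was 0.17 (SE 0.13, adjusted p = 0.427), and the mutants other than array 1 read 10.58 to 10.96, above every control posterior array.

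The laminin that hemidesmosomes bind gave no call in mutants. Lama3, its alpha chain, read 7.32, 8.62 and 9.47 in mutants, against 8.58, 8.98 and 9.21 in control posterior palate. The groups overlapped, with a difference of -0.45 (SE 0.26, 95% interval -0.99 to 0.09, adjusted p = 0.265). Lamb3, its beta chain, read 6.99, 8.07 and 8.75 in mutants, against 7.71, 8.22 and 8.49 in controls, with a difference of -0.20 (SE 0.22, adjusted p = 0.597).

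Mutant array 1 was the lowest of all 18 arrays for Col17a1, Itgb4, Dst, Itga6, Lama3 and Lamb3, and the highest of all 18 for Plec. Across the 35 genes it lay below the other mutants for 10, above them for 12 and among them for 13. None of the 8 basal epithelium markers was called for genotype, and 7 of the 8 differences were negative (median -0.35); their part in these values was not tested. Without that array, 9 of the 35 genes were called (11.5% of all genes), Itga6 was called higher in mutants by 0.32 (adjusted p = 0.00779), and Col17a1, Itgb4, Dst, Lama3 and Lamb3 were still not called.

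**Figure D2:**
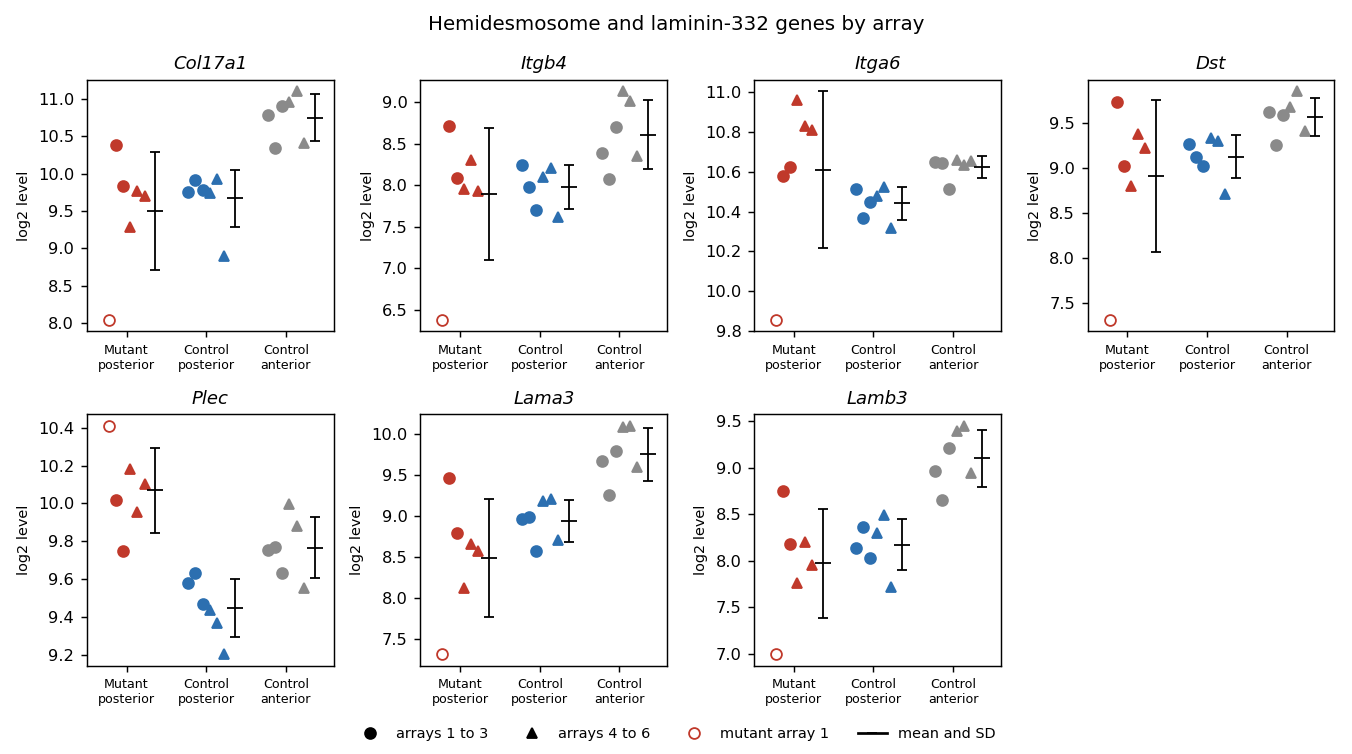
Log2 level on every array of the 5 hemidesmosome genes and of Lama3 and Lamb3, with the mean and SD of each group of 6; circles are arrays 1 to 3, triangles arrays 4 to 6, and the open circle is mutant array 1. The open circle is at the bottom of every panel except that of Plec, where it is at the top, and control posterior arrays lie below control anterior arrays without overlap for Col17a1, Lama3 and Lamb3.

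Laminin chains of other basement membranes were higher in mutants for 3 of 8. Lama2, the alpha chain of the main laminin of muscle and peripheral nerve, read 8.06, 8.76 and 9.50 in mutants, against 7.42, 7.67 and 7.82 in control posterior palate. Every mutant was above every control, by 1.08 (SE 0.21, limma adjusted p = 0.00269), a 2.12-fold difference. Lama4, an alpha chain of vessel and mesenchymal laminins, read 9.82, 10.43 and 10.60 in mutants, against 9.27, 9.54 and 9.81 in controls. The groups did not overlap, with the lowest mutant just above the highest control, and differed by 0.79 (SE 0.17, adjusted p = 0.00566), or 1.72-fold. Lamc1, the gamma chain of most laminins, read 9.03, 9.22 and 9.32 in mutants, against 8.48, 8.62 and 8.87 in controls. Its groups did not overlap either, and the difference was 0.55 (SE 0.086, adjusted p = 0.000673), or 1.46-fold. Lamb1, the usual beta partner of Lamc1, differed by 0.28 (SE 0.10, adjusted p = 0.0687). Lama1, Lama5, Lamb2 and Lamc3 differed by -0.26 to 0.15 and were not called.

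Both nidogens, which bind the laminin gamma-1 chain, were called. Nid2 read 8.72, 9.22 and 9.81 in mutants, against 7.99, 8.46 and 8.55 in control posterior palate, with no overlap. It was higher by 0.86 (SE 0.20, adjusted p = 0.00912), or 1.81-fold. Nid1 read 10.16, 10.91 and 11.04 in mutants, against 9.83, 10.11 and 10.41 in controls. Its groups overlapped through mutant array 2, and the difference was 0.65 (SE 0.20, adjusted p = 0.0377).

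Among integrin chains, the alpha-9 and alpha-4 chains differed most. Itga9, whose product pairs with beta-1 and binds tenascin-C, read 8.09, 8.33 and 8.61 in mutants, against 6.16, 6.53 and 6.74 in control posterior palate. All mutants lay above all controls, and the difference was 1.87 (SE 0.16, limma adjusted p = 1.45e-06), or 3.66-fold, the largest of the 35. This rests on 1 of 3 probe sets: the other two differed by 0.10 (adjusted p = 0.830) and -0.07 (adjusted p = 0.765, over all probe sets), and the mean of the 3 differed by 0.63 (adjusted p = 0.013). Itga4, a chain of leukocytes and embryonic tissues whose product binds fibronectin and VCAM-1, read 7.77, 8.10 and 9.14 in mutants, against 6.52, 7.24 and 7.41 in controls. Its groups did not overlap and differed by 1.09 (SE 0.22, adjusted p = 0.00415), or 2.12-fold.

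Of the 3 other chains known mainly from leukocytes, none was called: Itgb2, the common beta chain of leukocyte integrins, differed by 0.37 (adjusted p = 0.297), Itgb7 by -0.11 and Itgb2l by 0.02. Of the 8 leukocyte markers, 1 was called higher and 2 lower in mutants, and their mean lay between 8.41 and 9.08 in mutants and 8.69 and 9.10 in control posterior palate.

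Of the 6 chains that bind laminin or collagen, 2 were called. Itga10, a collagen receptor of cartilage, read 5.86, 6.81 and 7.79 in mutants, against 5.51, 5.96 and 6.17 in control posterior palate, and differed by 0.95 (SE 0.28, adjusted p = 0.0324). Itga7, the laminin receptor of skeletal muscle, read 5.45, 6.77 and 7.75 in mutants, against 5.63, 5.78 and 6.03 in controls, and differed by 0.82 (SE 0.26, adjusted p = 0.0461). The groups overlapped for both genes, and the highest mutant value of each was on array 1, where the muscle marker mean was also highest. All 10 muscle markers had positive genotype differences (median 0.85) and 1 was called; their part in the Itga7, Lama2 and Itga4 values was not tested. Itgb1, the common partner of these chains, differed by 0.17 (SE 0.14, adjusted p = 0.472). Itga1, a collagen receptor, differed by 0.37 (adjusted p = 0.0988), Itga2 by 0.13, and Itga3, a laminin receptor of epithelium, by -0.18.

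None of the 7 chains of integrins that recognise the RGD motif was called. Itgb3, the beta chain of the vitronectin receptor and of the platelet fibrinogen receptor, read 6.10, 6.83 and 8.74 in mutants, against 5.98, 6.07 and 6.46 in control posterior palate. Its difference was 0.88 (SE 0.29, adjusted p = 0.0532), with the highest value on mutant array 1; without that array it was 0.54 (adjusted p = 0.0318). It was also called without mutant array 2 (adjusted p = 0.0169), 4 (0.0476) or 5 (0.0467). The platelet and megakaryocyte markers gave 0 calls of 5, and Itga2b, the platelet alpha chain, differed by -0.14 (adjusted p = 0.420). Itga5, the main fibronectin receptor chain, differed by 0.26 (SE 0.10), short of the threshold. Itgb6 and Itgb8, whose integrins with the alpha-v chain activate latent TGF-beta, differed by 0.17 (adjusted p = 0.539) and -0.36 (adjusted p = 0.256). Itga8, a nephronectin receptor chain, differed by -0.10 and Itgb5 by 0.12.

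**Figure D3:**
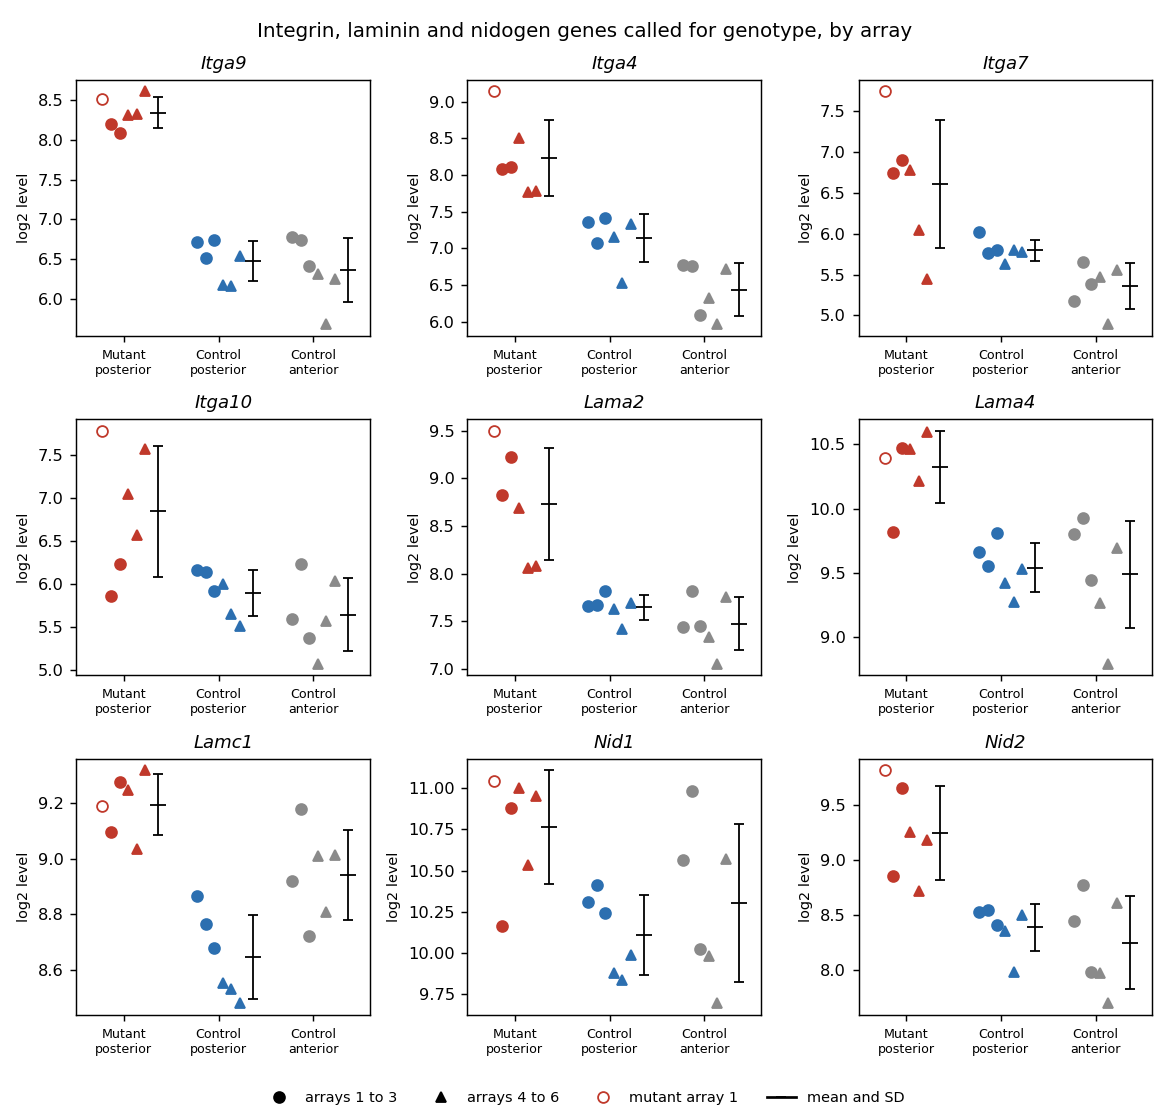
Log2 level on every array of the 9 integrin, laminin and nidogen genes called between mutant and control posterior palate, drawn as in the plot of hemidesmosome genes. Mutants lie wholly above control posterior arrays for Itga9, Itga4, Lama2, Lama4, Lamc1 and Nid2, and overlap them for Itga7, Itga10 and Nid1.

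Itga9, Itga4, Lama2, Lama4, Lamc1, Nid2 and Plec were called in each of the 18 fits that left out 1 array. Itga10 was lost without control posterior array 4 (adjusted p = 0.0552), 5 (0.0736) or 6 (0.0738) and without mutant array 1 (0.0681), 4 (0.0545) or 6 (0.0616). Nid1 was lost without control posterior array 4 (0.0848), 5 (0.0892) or 6 (0.0748) and without mutant array 1 (0.0741), 3 (0.067), 4 (0.0668) or 6 (0.061). Itga7 was lost in 15 of the 18 fits, with an adjusted p up to 0.093, and kept only without control anterior array 5 or mutant array 5 or 6.

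The genotype values were also taken within the sets of mutant arrays, each against all control posterior arrays, with the control anterior arrays kept in the fit. With mutant arrays 1 to 3, 12 of the 35 were called (27.4% of all genes): 10 were higher, and Itga8 (-0.79, adjusted p = 0.0345) and Lama1 (-0.76, adjusted p = 0.00956) were lower. With mutant arrays 4 to 6, 14 were called (18.2% of all genes), all higher, among them Itga6 (0.43, adjusted p = 0.000648), Itgb1 (0.45, adjusted p = 0.0212), Lamb1 (0.44, adjusted p = 0.0107) and Lamb2 (0.61, adjusted p = 0.00202). Some signs differed between the sets. Lamb2 differed by -0.31 with arrays 1 to 3 (adjusted p = 0.0532). Itga8 and Lama1 differed by 0.59 and 0.24 with arrays 4 to 6, and neither was called there. Itga4, Itga9, Itgb3, Lama2, Lama4, Lamc1, Nid2 and Plec were called with both sets. Lama2 differed by 1.54 with arrays 1 to 3 and 0.63 with arrays 4 to 6, and Itga7 by 1.34 with arrays 1 to 3 and 0.29 with arrays 4 to 6. With only control arrays 1 to 3 beside all mutants, Itga9 alone was called (0.742% of all genes). With only control arrays 4 to 6, 7 were called (5.54% of all genes), and Itga10, Itga7 and Nid2 were lost (adjusted p = 0.114, 0.204 and 0.0526). With the 4 sets as a random block (correlation 0.262), 4 remained called, Itga9 (adjusted p = 1.98e-05), Lama2 (0.0234), Lamc1 (0.0155) and Plec (0.0265), against 3.23% of all genes. The adjusted p of Itga4 was then 0.0556, of Lama4 0.0528, of Nid2 0.0850, and of Nid1, Itga7 and Itga10 0.178 to 0.195.

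Several genes had more than 1 probe set, and these are given with p-values adjusted over all probe sets. A dimmer probe set gave a larger difference than the brightest for Lama4 (1.37, adjusted p = 0.000531), Lamc1 (1.15, adjusted p = 0.000182), Nid1 (1.51, adjusted p = 0.00185), Plec (0.79, adjusted p = 0.000319) and Itga4 (1.77, adjusted p = 0.00363). These 5 genes were therefore higher in mutants on at least 2 probe sets each. Lama4 and Lamc1 had 2 probe sets, Nid1 and Plec 3 and Itga4 5, and the remaining ones are shown only in the plot of probe sets. For Dst the probe sets fell into pairs. The brightest and one other (0.01, adjusted p = 0.985) both had their lowest value on mutant array 1 (7.31 and 7.39). The remaining pair was higher in mutants, by 0.67 (adjusted p = 0.0149) and 0.49 (adjusted p = 0.0377), and the brighter of them read 9.49 on that array. Dst is known to give separate epithelial, neural and muscle isoforms, and which of them each probe set reads was not tested.

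**Figure D4:**
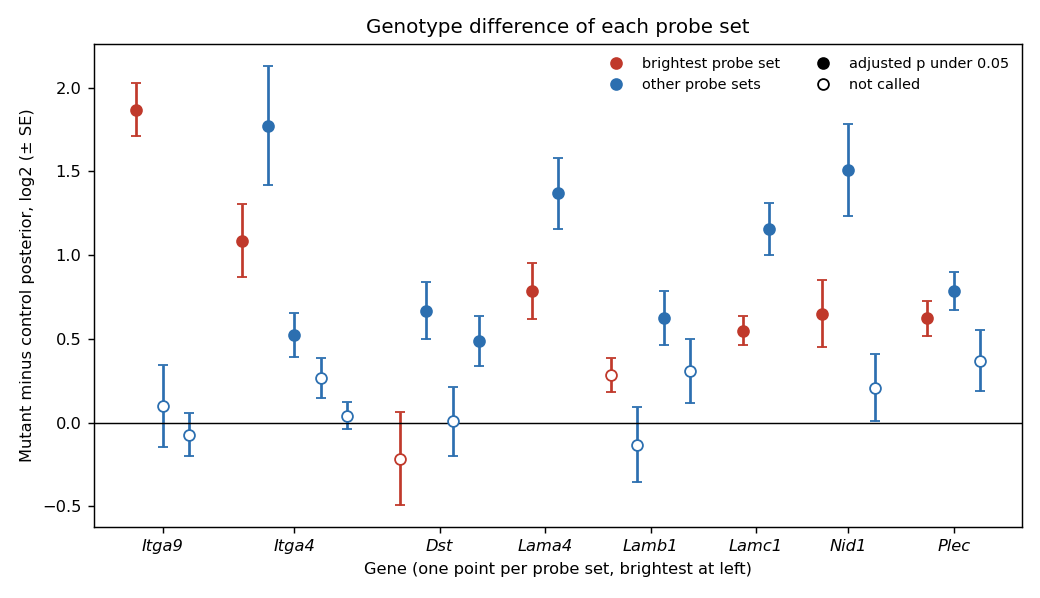
Difference between mutant and control posterior palate (log2, ± SE) for every probe set of 8 genes, with the brightest probe set in red at the left of each gene and filled points called at an adjusted p under 0.05 over all probe sets. Only the brightest Itga9 probe set of 3 is filled, Dst has 2 filled points above 0 although its brightest lies below 0, and Lama4, Lamc1, Nid1 and Plec each have a second filled point above the first.

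Genes that work with the 35 were taken from lists, whose counts stand beside 7.73% of all genes called higher in mutants and 5.73% called lower. Of 17 measured cytoplasmic linkers of integrins, 8 were called higher in mutants and none lower (median difference 0.28), and 9 did not pass. They included Parvb (0.91, SE 0.23, adjusted p = 0.0157), a parvin that binds integrin-linked kinase, Zyx (0.69, SE 0.15, adjusted p = 0.00747), the focal adhesion protein zyxin, Tln1 (0.52, SE 0.10, adjusted p = 0.00362), the talin that activates integrins, and Tns1 (0.51, SE 0.13, adjusted p = 0.0141), a tensin. Of 13 other basement membrane genes, only the collagen IV chain Col4a2 was called (0.61, SE 0.16, adjusted p = 0.0179). Of 4 laminin receptors and partners that are not integrins, Dag1, which encodes dystroglycan, was called (0.66, SE 0.084, adjusted p = 0.000108). Of 9 matrix ligands, Thbs1 (1.22, SE 0.17, adjusted p = 0.000251), Fn1 (0.57, SE 0.15, adjusted p = 0.0205) and Tnc (0.50, SE 0.15, adjusted p = 0.0328) were called higher; these encode thrombospondin-1, fibronectin and tenascin-C, the last a ligand of alpha-9 integrin. Of 5 integrin chains outside the naming rule, Itgal (0.66, SE 0.13, adjusted p = 0.00415), a leukocyte chain, and Itgav (0.55, SE 0.14, adjusted p = 0.0181), the alpha-v chain, were called higher. Beside these, 2 of 4 Schwann cell markers and 1 of 6 mesenchyme markers were called higher in mutants, and 0 of 8 endothelium markers. Differences were positive for 3 of the 4 Schwann cell (median 0.38), 5 of the 6 mesenchyme (0.33) and all 8 endothelium markers (0.20), against a median of 0.04 over all genes. Their part in the values of the 35 genes was not tested.

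The regions were compared as control posterior minus control anterior palate, in the fit of all 3 groups. Mutant arrays gave no level to this difference but entered the variance behind its SE and p-value. The median SD of the 35 genes was 0.395 in mutant posterior, 0.187 in control posterior and 0.265 in control anterior palate. Here 2 of the 35 genes (5.71%) were called, both lower in posterior palate, against 3.82% of all genes, 1.7% higher and 2.12% lower. They were Col17a1 and Lamb3, a hemidesmosome gene and a chain of the laminin it binds. The median difference was -0.08 over the 35 and -0.02 over all genes, and 10 had an unadjusted p under 0.05. In 4 of the 35 (11.4%), Col17a1, Itga8, Lama3 and Lamb3, every posterior array lay below every anterior array, against 3.67% of all genes. The comparison with mutants shares the control posterior arrays, so its values are not independent of these.

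Col17a1 read 8.90, 9.77 and 9.93 in control posterior palate, against 10.35, 10.85 and 11.11 in control anterior palate. The groups did not overlap and differed by -1.08 (SE 0.29, limma adjusted p = 0.0425), a 2.12-fold lower level. Lamb3 read 7.71, 8.22 and 8.49 in posterior palate, against 8.65, 9.09 and 9.45 in anterior palate. It too was without overlap, at -0.93 (SE 0.22, adjusted p = 0.0240), or 1.90-fold lower. Lama3 read 8.58, 8.98 and 9.21 in posterior palate, against 9.26, 9.74 and 10.10 in anterior palate, a difference of -0.81 (SE 0.26, adjusted p = 0.0869).

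The other 4 hemidesmosome genes had negative differences that were not called, Itgb4 -0.63 (SE 0.29, adjusted p = 0.230), Dst -0.44 (SE 0.28, adjusted p = 0.397), Plec -0.32 (SE 0.10, adjusted p = 0.0987) and Itga6 -0.18 (SE 0.13, adjusted p = 0.461). Itga8 read 8.71, 9.17 and 9.46 in posterior palate, against 9.50, 10.13 and 10.70 in anterior palate, a difference of -1.02 (SE 0.31, adjusted p = 0.0756). Itga4 read 6.52, 7.24 and 7.41 in posterior palate, against 5.97, 6.52 and 6.78 in anterior palate. Its difference of 0.70 (SE 0.22, adjusted p = 0.0868) was the largest positive one of the 35, with overlap.

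The basal epithelium markers had negative differences in 8 of 8, -0.65 to -0.13 (median -0.44), with none called, and all 10 skeletal muscle markers were called higher in posterior palate (median 3.91). Their part in the Col17a1, Lamb3 and Itga4 values was not tested. With the mutant arrays left out of the fit, the limma adjusted p was 0.002 for Col17a1 and 0.00188 for Lamb3. Lama3 (0.00407), Dst (0.0299), Plec (0.0345), Itgb4 (0.0353) and Itga6 (0.0392) were then also called lower in posterior palate. Among the members, 10 were called lower and 2 higher without the mutant arrays. In the fit of all 3 groups, the Col17a1 and Lamb3 calls lay near the threshold. Col17a1 was lost without any 1 of the 6 control posterior arrays (adjusted p 0.0607 to 0.115), without control anterior array 1 (0.0827), 3 (0.0863), 4 (0.0887) or 5 (0.0858) and without mutant array 5 (0.0504). Lamb3 was lost without control anterior array 3 (0.0537), 4 (0.0597) or 5 (0.0551) or control posterior array 6 (0.0722). Within control arrays 1 to 3, Col17a1 differed by -0.87 and Lamb3 by -0.77, and within arrays 4 to 6 by -1.30 and -1.09; neither was called within a set (adjusted p 0.375 to 0.649), where 0.451% and 0.0879% of all genes were called.

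Control arrays of the same number deviated together in both regions, in 6 of 6 pairs. Arrays of different numbers were not compared, and the sets of arrays parted by number in both regions. Pairing and set therefore cannot be told apart by these deviations, and the fit below takes the pairing as given. With the replicate number as a block and only the 2 control groups fitted, 12 of the 35 were called, against 17.3% of all genes. The 10 lower in posterior palate were Col17a1 (adjusted p = 0.000944), Lamb3 (0.00186), Lama3 (0.00232), Itga8 (0.00372), Dst (0.00832), Itgb4 (0.0183), Itgb8 (0.0232), Plec (0.0232), Lamb2 (0.0271) and Lamc1 (0.0372). The 2 higher were Itga4 (0.00639) and Itga7 (0.0367). In that fit 4 of the 5 hemidesmosome genes and Lama3 and Lamb3 were lower in posterior palate.

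Among the partner lists, where 1.7% of all genes were called higher and 2.12% lower, 3 of 13 other basement membrane genes were called lower in posterior palate: the collagen IV chain Col4a6 (-0.70, SE 0.091, adjusted p = 0.000156), Frem2 (-0.69, SE 0.14, adjusted p = 0.00978), a protein of the epithelial basement membrane, and Col18a1 (-0.38, SE 0.099, adjusted p = 0.0386). Of the 17 linkers, only Itgb1bp2, a muscle protein that binds the beta-1 tail, was called (3.62, SE 0.49, adjusted p = 0.000251). No gene of the lists of matrix ligands (Tnc -0.43 and Npnt -0.58 had the smallest p), other laminin receptors (Bcam -0.26, Dag1 -0.04) or other integrin chains (Itgal -0.32, Itgax 0.25) was called by limma; at an unadjusted p under 0.05 there were 3, 0 and 1.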

How the data were processed

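RNA from 18 samples of palate, 6 per group by the sample titles, was measured on Affymetrix arrays; the design text gives 5 per group, and all 6 were used. The authors deposited log2 values from RMA (version not given), according to the submitters' processing notes; its quantile step can hide a change common to most genes, and without detection calls a low level may be background. Of 45101 probe sets, 34945 had 1 symbol in the platform annotation, 932 several (1 of them Parp10 and Plec), 9160 were unlisted and 64 were controls. The brightest probe set stood for its gene, with no filter on dim genes, and 18032 of 18193 genes matched RefSeq.

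Tests were 2-sided and used limma (version 3.58.1, with statmod 1.5.0, under R 4.3.3), in 1 fit of 3 groups with 15 residual degrees of freedom, with Benjamini-Hochberg adjustment over 18193 genes. The fit was tested on simulated data. The main fit took no pairing. In the alternative fit with a replicate block, replicate numbers were taken to pair the control regions and not the genotypes. Deviations of same-numbered arrays correlated at 0.111 to 0.430 between the control regions, in 6 of 6 pairs. Between the genotypes they correlated at -0.222 to 0.157, with 2 of 6 above 0.1. These correlations cannot show pairing, because arrays of different numbers were not compared and the sets of arrays part by number in both regions. The number of arrays limits the precision. Alternatives changed the probe set, filter, scaling, variance model, arrays and threshold. Named genes were those called, the hemidesmosome and laminin genes described, the 5 largest differences per comparison, and up to 4 called genes per partner list, or 2 with the smallest p. The members and all lists were chosen with earlier results of these data known. Plots used Python 3.11.15 and matplotlib 3.10.9.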

Additional observations from a re-analysis of the deposited data

Results flagged for a closer look

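Of 105 sets of 6 arrays (35 genes in 3 groups), 12 held 1 array whose gap to its neighbour was large for the range (Dixon's test); chance gives about 1 in 20. Mutant posterior array 1 accounted for 4: it was the lowest mutant for Itga3 (6.49), Itga6 (9.86) and Itgb4 (6.38) and the highest for Itgb2 (6.68). Array 2 was the lowest mutant for Itga2 (5.69). In control posterior palate, array 6 was lowest for Col17a1 (8.90) and highest for Itgb2l (6.24), array 3 was lowest for Itgb1 (9.36) and highest for Itgb2 (5.37), and array 5 was lowest for Nid2 (7.99). In control anterior palate, array 3 was lowest for Itga6 (10.5) and array 4 for Lamc3 (5.28).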

How the results depend on the processing

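Against the 10 genotype and 2 region calls among the 35 genes, and 2449 and 695 over all genes, no called difference changed sign under any alternative. Counts below are genotype first and then region, with members given of all genes called. With only the 9096 genes brighter than the median gene, which leave 21 of the 35, genotype had 7 of 2102 and region 3 of 468: Itga9, Itga4, Itga10 and Itga7 were not tested, and Lamb1 (genotype, adjusted p = 0.0471) and Lamc1 (region, 0.0495) were gained. Leaving out 1 array gave 7 to 11 and 0 to 8 member calls, and 1512 to 2735 and 389 to 1213 over all genes. The replicate block gave 8 genotype calls of 890 over all genes, where the numbers were not taken to pair the samples, and 12 region calls of 3156. With only the 2 groups compared there were 9 of 1572 and 12 of 2151. For genotype, Itga10 (adjusted p = 0.0653) and Itga7 (0.103) were then lost and Itga1 (0.0441) was gained. Array weights gave 13 of 3332 and 11 of 3356. With the sets of arrays as a random block there were 4 of 588 and 5 of 1322. With mutant arrays 1 to 3 only, genotype had 4986 over all genes; with 4 to 6 only, region had 12 of 2195. With control arrays 1 to 3 only there were 1 of 135 (Itga9) and 0 of 82, and with 4 to 6 only 7 of 1008 and 0 of 16. At a threshold of 0.01 there were 7 of 905 and 0 of 251. With every probe set tested, 4697 and 870 probe sets were called. Members were counted there by their brightest probe set only, which gave 10 and 1. The causes were not tested, beyond the smaller number of arrays in some fits. Of all genes called for genotype, 57.5% were higher as deposited, 40.5% after median centring and 45.4% after quantile normalization, and for region 44.5%, 71.2% and 55.2%; the 7 and 8 members still called for genotype were all higher. Median centring lost Itga10 (adjusted p = 0.0549), Itga7 (0.0584) and Nid1 (0.0542), and quantile normalization lost Itga10 (0.055) and Itga7 (0.0596).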
